A study of Mus musculus with 32 samples.

Results

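The effect of donor regulatory T cells (Treg) on conventional CD4 T cells was measured in mice with graft-versus-host disease (GVHD), the attack of transplanted T cells on the tissues of a genetically different recipient. The comparison set 4 CD4 libraries from Treg-treated allogeneic hosts against 4 CD4 libraries from untreated allogeneic hosts, 8 of the 31 RNA libraries of the series, and the libraries were chosen by their labels alone. Both groups held CD4 T cells from C57Bl6 donors that had been transferred into Balb/c hosts, a pairing with mismatched major histocompatibility genes, and had been sorted from spleen and lymph nodes. Hosts of the first group had also received Treg on day 0, and hosts of the second, labelled as untreated GVHD, had not. The sample titles and the receptor tables place these cells at day 6, whereas the series' design text says day 8. The design text lists Treg among the cells of C57Bl6 donors; the number given, the conditioning and age of the hosts and the number of animals behind a library are not given in the sources used here. Label prefixes JL019 and JL027, which the receptor tables name as experiments, each gave 2 libraries to each group. Below, the 4 values of a group always follow the order JL019-1, JL019-2, JL027-1 and JL027-2. The numbers in the labels are read as hosts where receptor libraries are compared, but nothing says that a library came from 1 separate animal. P-values therefore measure only the spread between libraries, for limma over all 31 RNA libraries and for permutation tests over these 8.

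In GVHD, donor CD4 T cells recognise host antigen through the T-cell receptor (TCR), divide, secrete cytokines and differentiate into effector cells. Treg are a suppressive CD4 lineage that is known to limit this response, among other routes by consuming interleukin 2, by inhibitory receptors and by acting on antigen-presenting cells. How the conventional CD4 cells of a Treg-treated host differ from those of an untreated host is therefore read here from the genes of cytokines, stress and protein synthesis, TCR signalling, metabolism, division and homing, and from the clonotypes that the same libraries carried.

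In Treg-treated hosts, CD4 cells had higher levels of cytokine and chemokine genes, 11 of 21 with Il2, Il3, Areg and Xcl1 among them, of Il4, of 12 of 25 chaperone genes and of 27 of 30 ribosomal protein genes. Lower were 7 of 25 genes of the TCR signalling list, among them Plcg1 and Nfatc1, 6 of 20 TGF-beta pathway genes and the nutrient genes Slc7a5 and Cpt1a. The interferon gamma receptor chains parted, Ifngr2 being higher and Ifngr1 lower. Over all genes 22.2% were called, 10.7% higher and 11.5% lower, and 1 of the 4 Treg-treated libraries resembled the allogeneic ones in most genes.

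Before the single genes, the libraries are described, since they differed in more than the treatment. RNA values are normalised counts, that is, estimated read counts scaled between libraries by the authors, and their depth is unknown. Cd4 read 21374, 21480.5, 16706 and 19519 in the allogeneic and 9108, 8722, 17587 and 9369.5 in the Treg-treated libraries, against 16.4 to 64.4 for Cd8a over all 8, so all were CD4 libraries by these markers. Of 8 Treg markers limma called 0 between the groups, with 5 at an unadjusted p under 0.05, 4 of them lower and 1, Ikzf2, higher. Foxp3, the defining transcription factor of Treg, read 579, 367, 337 and 469.9 in allogeneic and 172, 127, 147 and 178 in Treg-treated libraries (limma adjusted p = 0.0793), and Ikzf2, a transcription factor of Treg and some activated T cells, read 315, 396, 699.6 and 546 in allogeneic and 760.3, 608, 1132 and 1009.7 in Treg-treated libraries (adjusted p = 0.0581). All 31 libraries entered the fit, including a CD4 library from a syngeneic host, JL019-2, that goes against its label. Without it limma called 3 Treg markers lower, Foxp3 among them (adjusted p = 0.0136), and 1 higher, Ikzf2 (adjusted p = 0.0235). The summed level of 14 myeloid markers was 5953 to 11728 in allogeneic and 24373 to 89517 in Treg-treated libraries, mostly S100a8, S100a9 and Lyz2, and limma called 2 of the 14 higher, S100a8 and S100a9, and 1 lower. The lower one was the integrin gene Itgam, with 571, 489.7, 392 and 419 in allogeneic and 121, 112, 304 and 76.7 in Treg-treated libraries (adjusted p = 0.0178), and the macrophage markers Csf1r and Adgre1 had log2 changes of -0.21 and -0.17 and were not called. Without the syngeneic library 8 myeloid markers were higher, Lyz2 among them (adjusted p = 0.00529), and 1 was lower. The summed level of 10 erythroid markers was 821 to 11476 and 6338 to 64964, with the erythroid level higher in JL027 than in JL019 in both groups. Of these, limma called 1 higher, or 4 without the syngeneic library. Their part in the results below was not tested. The summed level of 11 B cell markers was 4741 to 5991 and 5824 to 11524, that of 2 CD8 markers 357 to 605 and 426 to 863, that of 8 NK markers 8550 to 16312 and 4995 to 11811, mostly Gzma, that of 5 plasma cell markers 8880.0 to 10014 and 6235 to 8333, and that of 3 platelet markers 20.6 to 72.3 and 30.5 to 96.6. Ncr1 was the NK marker that was called, at 10.5, 4.87, 3.98 and 4.22 in allogeneic and 21.3, 31.8, 21.8 and 46.3 in Treg-treated libraries, without overlap, a rise of 2.20 (limma adjusted p = 0.0302). When each of the 8 libraries was left out in turn, Ncr1 was called in 2 of the 8 fits (highest limma adjusted p = 0.0923). Without the syngeneic library 2 NK markers were higher and 1 lower, and of the B cell markers, of which limma called 0 with all 31 libraries, 2 were higher and 2 lower. H2-Eb1 of the B cell and Klra8 of the NK markers were at 0 in at least 4 of the 8 libraries. In bulk RNA, fewer cells of a type and less RNA per cell cannot be told apart.

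One library stood apart from its group. Among the 5633 genes called without Treg-treated JL027-1, this library lay nearer to the allogeneic mean than to the mean of the other 3 Treg-treated libraries in 81.4% of genes, at a median position of 0.213 on a scale from 0 (allogeneic mean) to 1 (mean of the other 3). The same measure for the other libraries, each over the genes called without it, put 5.65% (JL019-1), 5.74% (JL019-2) and 1.87% (JL027-2) of genes nearer to allogeneic, with medians of 1.09, 1.14 and 1.11. These values rest on 672, 470 and 747 genes. JL027-1 took part in calling them and in the mean that sets position 1, so they are not like for like with its own value. JL027-1 still lay on the Treg-treated side of the allogeneic mean in 73.0% of its 5633 genes, and at or past the mean of the other 3 in 168. Across genes, which are not independent replicates, Pearson's r of log2 values between JL027-1 and the 4 allogeneic libraries was 0.959 to 0.973, against 0.940 to 0.958 with the other Treg-treated libraries. In the CD8 libraries of the series, the mean signed log2 shift of the same 5633 genes was taken from the CD8 allogeneic mean. It was 0.0359 in Treg-treated JL019-1, 1.22 in JL019-2, 0.0729 in JL027-1 and 0.554 in JL027-2. The CD8 allogeneic libraries had shifts of -0.0927, -0.120, 0.296 and -0.0828. In the Treg-treated CD4 libraries the shifts were 1.26, 1.35, 0.288 and 1.18. The genes and their signs were picked with CD4 JL019-1, JL019-2 and JL027-2. Their large shifts therefore follow from the selection and cannot be compared with those of JL027-1 or of the CD8 libraries.

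**Figure D1:**
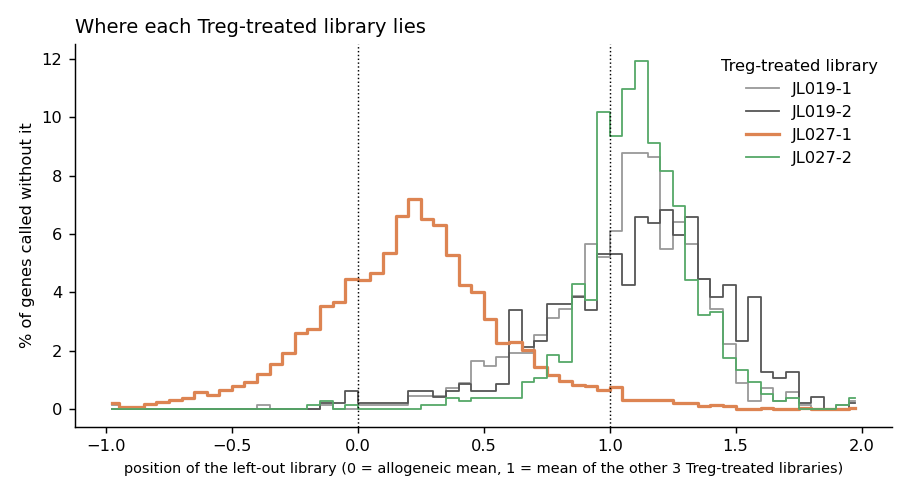
Position of each Treg-treated CD4 library when it is left out, over the genes called without it. The x axis runs from 0 (allogeneic mean) to 1 (mean of the other 3 Treg-treated libraries) and the y axis gives the percent of genes per bin. The median of JL027-1 is 0.213 and the medians of the other 3 lie between 1.09 and 1.14. For those 3, JL027-1 is part of the mean at 1 and of the fit that called the genes.

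Libraries also differed in a trend with gene length. Each gene's log2 value, taken from its average in the 31 libraries, changed per doubling of the gene's genomic span (RefSeq, build GRCm38.p6, as for every coordinate below) by 0.0245, 0.0452, 0.0197 and 0.0298 in the allogeneic libraries and by -0.0985, -0.121, 0.0160 and -0.0687 in the Treg-treated libraries. The groups did not overlap, and the means of 0.0298 ± 0.0111 (SD, n = 4) and -0.0679 ± 0.0599 (SD, n = 4) differed at a two-sided exact permutation p of 0.0286, the smallest that 4 against 4 libraries can give. Long genes therefore read lower and short genes higher in 3 of the 4 Treg-treated libraries, and JL027-1 again lay beside the allogeneic values. For the lists with the larger changes, counts with this trend removed from each library are given as well.

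**Figure D2:**
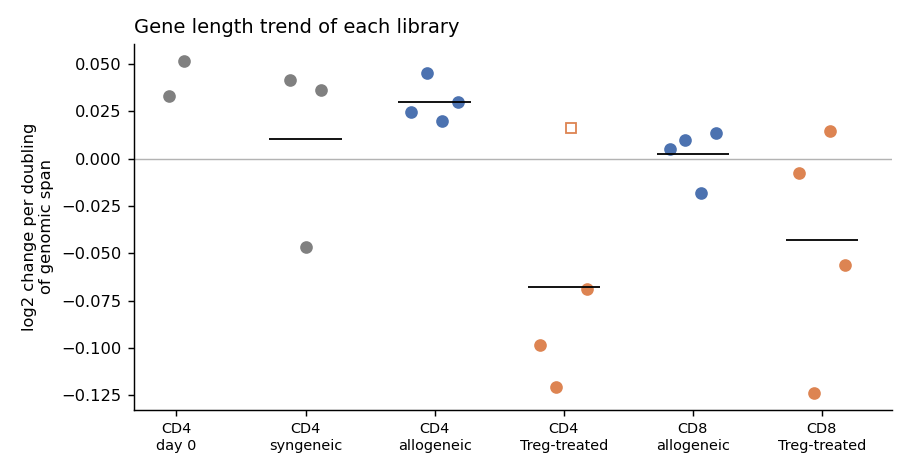
Gene length trend of the CD4 and CD8 libraries. Each point is a library, the y axis gives the log2 change per doubling of genomic span, lines are means of groups of 3 or more libraries and the open square is Treg-treated CD4 JL027-1; the other 3 Treg-treated CD4 libraries lie between -0.121 and -0.0687, below all 4 allogeneic CD4 libraries.

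Over the whole table, 3710 of 16741 genes (22.2%) were called, that is, had a limma p under 0.05 after Benjamini-Hochberg adjustment, with 1785 higher (10.7%) and 1925 lower (11.5%) in Treg-treated hosts. Every change below is the difference of log2(value + 1), Treg-treated minus allogeneic, and its median over all genes was -0.0018. The 4 and 4 libraries did not overlap in 3724 genes (22.2%), 2014 higher (12% of all genes) and 1710 lower (10.2%). All 3710 called genes changed in the same direction within JL019 and within JL027. Each change is the mean of the 2 within-prefix changes of the same libraries, so this shared direction is not a replication. The change was the smaller one within JL027 in 3470 of the 3710 genes (93.5%). A fit within 1 prefix, with 2 against 2 libraries, called 5 genes in JL019 and 8 in JL027. Centring each library on its own median, which moved the median of all genes to 0.20, called 3871 genes (23.1%), 2500 higher (14.9%) and 1371 lower (8.19%), so the split of 48.1% higher became 64.6%. With the length trend removed the count was 3321 (19.8%), with 1657 higher (9.9%) and 1664 lower (9.94%). Without the syngeneic library that goes against its label it was 4787 (28.6%), with 2273 higher (13.6%) and 2514 lower (15%), and all 3710 genes were among them. Single libraries set the count: it was 470 without Treg-treated JL019-2, 672 without JL019-1, 747 without JL027-2 and 5633 (33.6%, with 16.2% higher and 17.5% lower) without JL027-1, and 1446, 1138, 3477 and 2285 without each allogeneic library. A core of 386 genes, 194 of them higher, was called in all 8 of these fits, each without 1 library. Of the 124 called genes named here, 54 were among them.

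Secreted cytokines and chemokines had the highest median change of the pathway lists. Of 21 genes, 11 rose, against a background of 10.7% of all genes, and 0 fell, with a median log2 change of 1.27, 1.77 within JL019 and 0.78 within JL027. With the length trend removed 9 rose and the median was 1.13. The number that rose was 13 without Treg-treated JL027-1, 6 without each of the other 3 Treg-treated libraries and 8 to 10 without each allogeneic library. Areg, Xcl1, Ccl4, Il2, Ccl3 and Ccl1 were among the 386 genes called throughout. The 10 not called included Tnf at 515, 584, 376 and 425 in allogeneic and 727, 928, 436 and 826 in Treg-treated libraries, and Il10 at 215, 174, 301 and 215 in allogeneic and 312, 319, 236 and 405 in Treg-treated libraries. Ifng, the effector cytokine of type 1 responses, which the type 1 helper list holds, read 3919, 4203, 5069.5 and 4537 in allogeneic and 7395, 11048, 5285 and 6888 in Treg-treated libraries and was not called (limma adjusted p = 0.0693).

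Upstream sequences are shown for Il2, Il4 and Areg, 3 secreted factors that were called in all 8 fits; Il4 belongs to the list of type 2, type 17 and follicular helper genes. Il2 and Il4 hold the NFAT core that most members of the cytokine list also hold, and Areg is shown for another motif. The 250 bases before the transcription start of Il2 (chr3:37125955-37126204, minus strand) and Il4 (chr11:53618666-53618915, minus strand) and the 160 bases before that of Areg (chr5:91139439-91139598, plus strand) are RefSeq sequences of build GRCm38.p6, written 5′ to 3′ on the gene's strand. Capitals mark GGAAA, the core that NFAT factors bind, or its complement TTTCC in Il2 and Il4, and TGACGTCA, the cAMP response element, in Areg.
Il2: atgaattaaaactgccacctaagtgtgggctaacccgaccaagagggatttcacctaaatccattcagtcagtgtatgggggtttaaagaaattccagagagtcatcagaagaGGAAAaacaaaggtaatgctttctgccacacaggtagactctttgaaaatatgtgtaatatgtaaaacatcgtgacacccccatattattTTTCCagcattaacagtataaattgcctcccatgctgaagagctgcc
Il4: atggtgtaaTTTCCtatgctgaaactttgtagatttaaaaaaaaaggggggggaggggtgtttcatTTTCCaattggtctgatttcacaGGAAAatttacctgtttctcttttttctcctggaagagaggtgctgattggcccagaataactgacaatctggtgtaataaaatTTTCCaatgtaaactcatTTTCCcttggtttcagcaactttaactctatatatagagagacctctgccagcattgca
Areg: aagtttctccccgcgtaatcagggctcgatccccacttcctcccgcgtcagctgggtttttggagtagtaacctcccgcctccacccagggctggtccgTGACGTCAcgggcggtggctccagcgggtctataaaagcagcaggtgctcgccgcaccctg
GGAAA occurred 2 times in the Il2 and 5 times in the Il4 window. Il4 has 2 listed starts, and the start shown was picked for its number of matches. Of 17 cytokine list members with a listed promoter, 16 held it within 250 bases, against 58.8% of 27025 genes. TGACGTCA lay at -61 from the Areg start and occurs within 160 bases of the start in 1.61% of genes, and 1 of the 17 members, Areg, held it within 250 bases. A match in these windows is a description of the letters and not of binding.

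Interleukin 2 (Il2, ENSMUSG00000027720) is the main growth factor of T cells and the cytokine that Treg consume. Its normalised count was 50.3, 63.1, 181 and 134 in the allogeneic and 678, 794, 269 and 632 in the Treg-treated libraries. The groups did not overlap, the 2 allogeneic JL027 libraries lay above the 2 JL019 libraries, and Treg-treated JL027-1 was the lowest of its group. The log2 change was 2.54 (SE 0.528, limma adjusted p = 0.00734), with 3.68 within JL019 and 1.40 within JL027. Il4 (ENSMUSG00000000869), the cytokine of type 2 helper cells, read 201, 275, 369 and 256 in allogeneic and 1622, 1787, 826 and 1907 in Treg-treated libraries, and every Treg-treated library exceeded every allogeneic one. It rose by 2.44 (SE 0.423, limma adjusted p = 0.00241). Of the 18 type 2, type 17 and follicular helper genes of its list 3 rose and 1 fell, against 10.7% and 11.5% of all genes. The counts were 4 and 3 without Treg-treated JL027-1 and 1 and 0 without each other Treg-treated library.

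Areg (ENSMUSG00000029378) encodes amphiregulin, a ligand of the epidermal growth factor receptor that Treg and other lymphocytes secrete. It read 5.84, 5.82, 10.9 and 13.7 in allogeneic and 139, 125, 31.5 and 61.3 in Treg-treated libraries, so all 4 Treg-treated libraries lay above all allogeneic ones, and JL027-1 was again the lowest of them. The log2 change was 3.02 (SE 0.515, limma adjusted p = 0.00241). Il3, a growth factor of haematopoietic progenitors and mast cells, read 64.0, 76.5, 344 and 249 in allogeneic and 1475, 1402, 365 and 1658 in Treg-treated libraries, and its change was 2.87 (SE 0.722, limma adjusted p = 0.0135). The highest allogeneic and the lowest Treg-treated library, both JL027-1, were close to each other in Il3, and the call was lost without each of the other 3 Treg-treated libraries. Csf2, the granulocyte-macrophage growth factor, rose by 1.66 (limma adjusted p = 0.0269), and its libraries overlapped, with 1356 in Treg-treated and 1529 in allogeneic JL027-1. Csf2 did not pass with the length trend removed (adjusted p = 0.0534) and was called in 2 of the 8 fits without 1 library.

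Among the chemokines, Xcl1, which attracts cross-presenting dendritic cells, read 43.7, 96.4, 123 and 71.3 in allogeneic and 637, 1026, 229 and 432 in Treg-treated libraries, with no overlap. It rose by 2.68 (SE 0.459, limma adjusted p = 0.00241). Ccl4 and Ccl3, which attract inflammatory cells, rose by 1.73 and 2.14 (limma adjusted p = 0.00348 and 0.00738), and Ccl1, the ligand of Ccr8, rose by 2.19 (adjusted p = 0.00879). Ccl4 read 1373, 1958, 2081 and 2447 in allogeneic and 7363, 10007, 4218 and 5406 in Treg-treated libraries. The lymphotoxin genes Lta and Ltb, whose products organise lymphoid tissue, rose by 1.09 and 0.93 (limma adjusted p = 0.0142 and 0.0234), and with the length trend removed Ltb did not pass (adjusted p = 0.0909). Il6 rose by 1.98 (limma adjusted p = 0.0267), with 89.0, 86.9, 76.7 and 89.8 in allogeneic and 313, 366, 283 and 412 in Treg-treated libraries. It was called in 2 of the 8 fits without 1 library. Il6 is also made by myeloid cells, whose summed marker level was higher in the same 4 libraries, and the part of those cells was not tested.

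**Figure D3:**
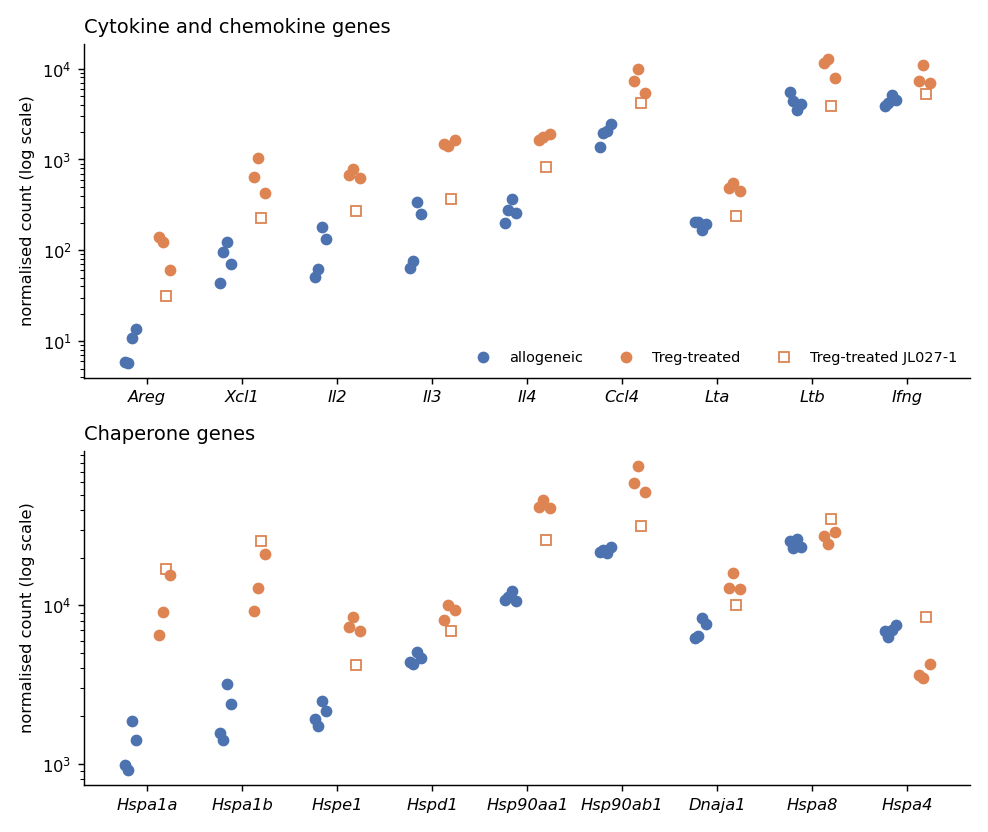
Normalised counts (log scale) of cytokine and chemokine genes, above, and chaperone genes, below, in the 4 allogeneic and 4 Treg-treated CD4 libraries. Each point is a library and the open square is Treg-treated JL027-1, which is the lowest Treg-treated library for each of the 9 genes in the upper panel and the highest for Hspa1a, Hspa1b, Hspa8 and Hspa4 in the lower one.

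Chaperones, the proteins that fold other proteins and are induced by heat and other stress, were a list written after their values had been seen, so its count is a description. Of 25 cytosolic and mitochondrial chaperone genes 12 rose and 0 fell, with a median log2 change of 0.45, 0.63 within JL019 and 0.35 within JL027. With the length trend removed 11 rose, and the number was 8 without Treg-treated JL019-2 and 10 to 12 without each other library. Without Treg-treated JL027-1, 2 members fell, and without the syngeneic library that goes against its label 1 fell, Hsf1. Treg-treated JL027-1, which lay nearer to the allogeneic mean in most genes, was nearer to the mean of the other Treg-treated libraries in 10 of the 14 chaperone genes called without it, against 1045 of the 5633 genes as a whole.

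The inducible Hsp70 genes Hspa1a (ENSMUSG00000091971) and Hspa1b (ENSMUSG00000090877), neighbours on chromosome 17, changed most in this list. They are near-identical copies, so how reads were split between them is uncertain. Hspa1a read 985, 914, 1863 and 1408 in allogeneic and 6527, 9107, 16961 and 15476 in Treg-treated libraries, with no overlap and with JL027-1 the highest of all 8. The log2 change was 3.17 (SE 0.709, limma adjusted p = 0.0091), and Hspa1b rose by 2.98 (SE 0.683, limma adjusted p = 0.00999). The 3 CD4 libraries from syngeneic hosts read 41842, 31786 and 5365 for Hspa1a, and the 2 day 0 libraries 1748 and 1553. The second of these syngeneic libraries, JL019-2, read 1659 for Cd4 and 1956 for Cd8a, the library that goes against its label. The sequences of both genes' 160 bases before the start are shown because they differ in a single base and share the heat shock element GAANNTTC, in capitals at -104 from the start (GRCm38.p6, Hspa1a at chr17:34972157-34972316 and Hspa1b at chr17:34959239-34959398, both on the minus strand).
Hspa1a: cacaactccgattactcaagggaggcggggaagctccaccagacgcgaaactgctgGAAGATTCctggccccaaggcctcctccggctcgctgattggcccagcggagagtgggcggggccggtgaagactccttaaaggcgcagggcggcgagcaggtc
Hspa1b: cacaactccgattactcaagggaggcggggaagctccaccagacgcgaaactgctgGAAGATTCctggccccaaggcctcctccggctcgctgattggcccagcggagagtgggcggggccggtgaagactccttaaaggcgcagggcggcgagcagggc
GAANNTTC, which reads the same on both strands, occurred within 250 bases of the start in 9 of the 19 chaperone genes with a listed promoter and in 7.73% of 27025 genes.

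Hsp90 genes rose as well. Hsp90aa1 (ENSMUSG00000021270, chr12:110691036-110696395), the inducible cytosolic Hsp90, read 10767, 11316, 12317 and 10596 in allogeneic and 41902, 46727, 25873 and 41459.6 in Treg-treated libraries, where even JL027-1 lay above all allogeneic values. It rose by 1.76 (SE 0.261, limma adjusted p = 0.000681) and was called in all 8 fits without 1 library. Hsp90ab1, the constitutive form, read 21784, 22254, 21578 and 23351 in allogeneic and 59753, 75762, 31651 and 51827 in Treg-treated libraries, a change of 1.23 (limma adjusted p = 0.00152). The mitochondrial pair Hspe1 and Hspd1, which form the Hsp10 and Hsp60 folding chamber, rose by 1.67 and 0.88 (limma adjusted p = 0.00241 and 0.00849), and the cochaperones Cacybp, Dnaja1, Ahsa1, St13, Chordc1 and Fkbp4 by 0.43 to 1.10. Fkbp4 did not pass with the length trend removed. Hspa4, another Hsp70 family member, read 6843, 6300.0, 6956 and 7539 in allogeneic and 3623, 3470.2, 8410.4 and 4239.7 in Treg-treated libraries, so JL027-1 lay above and the other 3 below the allogeneic range. Hspa8, the constitutive Hsp70, read 25615, 23154, 26443 and 23546 in allogeneic and 27395, 24566, 35117 and 28959.7 in Treg-treated libraries and was not called (limma adjusted p = 0.389), nor were Hsph1 and Bag3. Hsf1, the transcription factor of the heat shock response, read 1168, 1065, 819.5 and 1139 in allogeneic and 695, 672, 723 and 526 in Treg-treated libraries, without overlap. It was not called (limma adjusted p = 0.0771), but was called lower without the syngeneic library (adjusted p = 0.0377).

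Ribosomal protein genes were higher in the full set of libraries. Of 30 cytosolic ribosomal protein genes 27 rose and 0 fell, with a median log2 change of 0.92, 1.25 within JL019 and 0.63 within JL027. These genes are short, with a median span of 3.45 kb against 19.99 kb over all genes, and with the length trend removed 25 rose and the median was 0.69. The count was 28 without Treg-treated JL027-1 and 5, 0 and 6 without JL019-1, JL019-2 and JL027-2, and it was 20, 9, 27 and 17 without each allogeneic library. In 0 of the 28 genes called without JL027-1 was that library nearer to the mean of the other Treg-treated libraries. Rplp1, a protein of the ribosomal stalk, read 6853, 5439, 6655 and 5570.3 in allogeneic and 16996, 16134, 7964 and 15279 in Treg-treated libraries. JL027-1 lay just above the highest allogeneic value and far below the other 3 Treg-treated libraries. Its log2 change was 1.15 (SE 0.274, limma adjusted p = 0.0118). Rpl3 and Rpl4, with 0.37 and 0.33, were not called.

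Ribosome biogenesis and translation factors split, with 11 of 24 higher and 4 lower, and without Treg-treated JL019-2 0 of them passed in either direction. The nucleolar proteins Nolc1, Npm1 and Fbl rose by 0.69, 0.78 and 0.87 (limma adjusted p = 0.011, 0.0181 and 0.0189), while Polr1a and Polr1b, the 2 largest subunits of RNA polymerase I, fell by 1.36 and 1.41 (adjusted p = 0.0231 and 0.0248). Polr1a read 1256, 1223, 897 and 998 in allogeneic and 297, 308, 900.3 and 388 in Treg-treated libraries, with JL027-1 at the lower end of the allogeneic range. Of 24 proteasome and antigen presentation genes 15 rose and 0 fell (median 0.73, and 12 genes and 0.56 with the trend removed). B2m (ENSMUSG00000060802, chr2:122147687-122153082), the light chain of class I molecules, read 115308, 92298, 131673 and 103551 in allogeneic and 276562, 315064, 156354 and 257144 in Treg-treated libraries without overlap and rose by 1.15 (SE 0.265, limma adjusted p = 0.0103), and the proteasome activator Psme2 and the immunoproteasome subunit Psmb10 rose by 0.99 and 0.92. The proteasome count was 16 higher and 4 lower without Treg-treated JL027-1 and 15 and 3 without the syngeneic library. It was 1 higher without each of the other 3 Treg-treated libraries and 6, 2, 13 and 11 higher without each allogeneic library, with 0 lower.

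Within the unfolded protein response, the programme that handles misfolded secretory proteins, 7 of 19 genes rose and 0 fell, a count of 7 higher and 1 lower without Treg-treated JL027-1 and of 1 or 2 higher without each of the other 3. Creld2 read 1634, 1534, 2023 and 2265 in allogeneic and 4751, 5332, 2688 and 3762 in Treg-treated libraries, with no overlap, and rose by 1.12 (SE 0.219, limma adjusted p = 0.00511), and Manf and Sdf2l1 rose by 1.20 and 1.10 (adjusted p = 0.0105 and 0.0178). Hspa5, the main chaperone of the endoplasmic reticulum, read 34351, 37198, 40880.2 and 40973 in allogeneic and 37340.3, 41291, 47921 and 37044 in Treg-treated libraries and was not called, with a log2 change of 0.089.

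Oxidative phosphorylation genes rose in 16 of 29 cases and fell in 1, with a median log2 change of 0.84, 1.25 within JL019 and 0.40 within JL027. With the trend removed the counts were 12 and 1 and the median 0.68. Cycs, cytochrome c, read 3726, 3160.1, 4775 and 4263 in allogeneic and 9092, 10489, 5876 and 8917 in Treg-treated libraries and rose by 1.10 (SE 0.27, limma adjusted p = 0.0129), and Atp5e and Ndufa4, small subunits of ATP synthase and of the respiratory chain, rose by 1.07 and 1.10. The exception was Ndufs1, the largest subunit of complex I, which fell by 0.69 (limma adjusted p = 0.0273). Ndufs1 was called in 1 of the 8 fits without 1 library (highest limma adjusted p = 0.106). The 4 and 4 libraries did not overlap in 7 of the 29 genes, all higher, against 12% of all genes, and the number that rose was 19 without Treg-treated JL027-1, 1, 0 and 2 without the other 3 in order, and 4, 2, 15 and 8 without each allogeneic library.

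**Figure D4:**
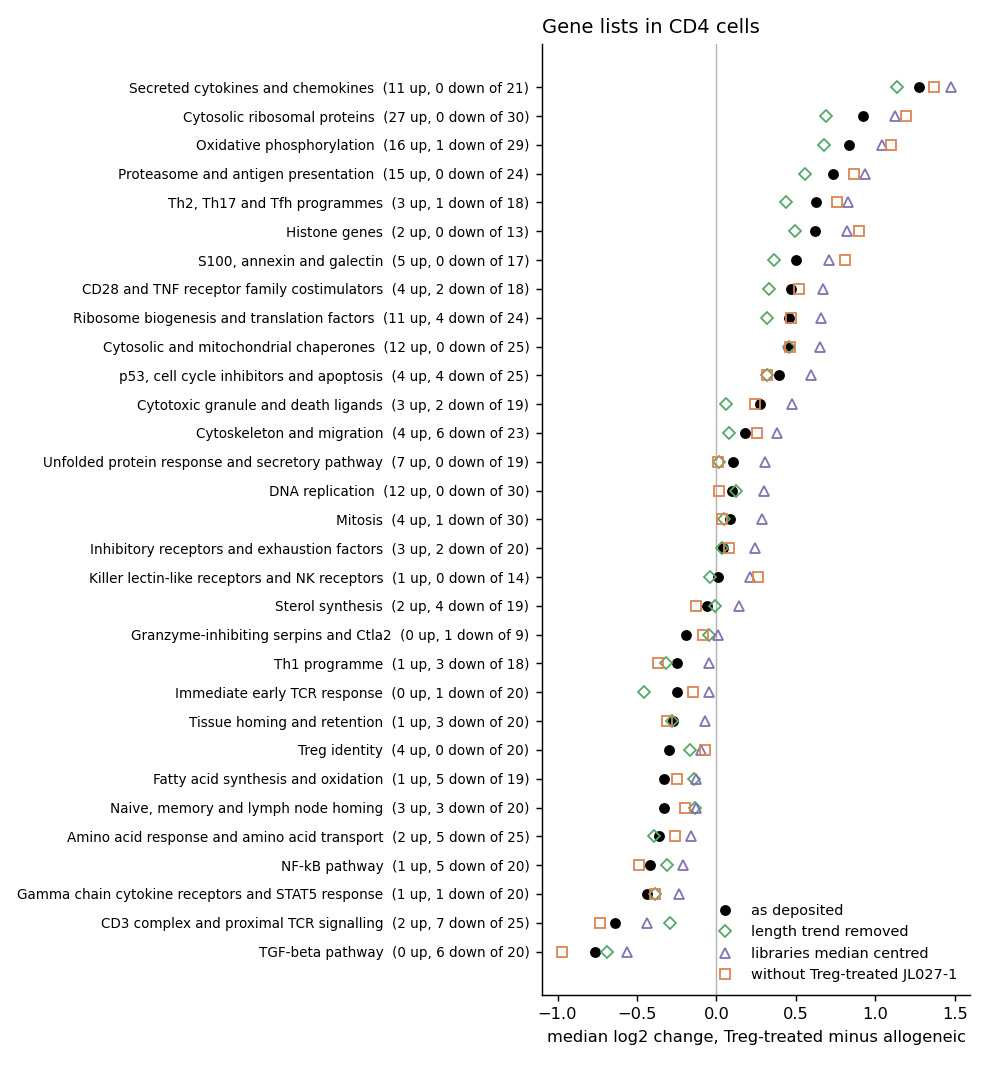
Median log2 change of the members of each pathway gene list, Treg-treated minus allogeneic CD4 cells. Each row is a list with its counts of members called higher and lower, the x axis is the median log2 change and the 4 symbols are the values as deposited, with the length trend removed, with each library median centred and without Treg-treated JL027-1; cytokines and chemokines are highest at 1.27 and the TGF-beta pathway is lowest at -0.77.

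Most signalling genes that were called fell. Of 25 genes of the CD3 complex and of proximal TCR signalling 7 fell and 2 rose, with a median log2 change of -0.64. These genes are long (median span 50.1 kb), and with the length trend removed the median was -0.29 and the counts were 6 and 1. Without Treg-treated JL027-1, 10 fell, against 1 without each of the other 3, 1 without each allogeneic JL019 library, and 7 and 5 without the allogeneic JL027 libraries, and 11 fell without the syngeneic library. The CD3 chains Cd3g and Cd3d were those that rose, by 1.00 and 0.83 (limma adjusted p = 0.02 and 0.0388). Plcg1, the phospholipase that opens the calcium branch of TCR signalling, read 5403, 5215, 2633 and 3811 in allogeneic and 506, 421, 2172 and 431 in Treg-treated libraries. Treg-treated JL027-1 lay just under the lowest allogeneic library and the other 3 far below it, and the log2 change was -2.62 (SE 0.771, limma adjusted p = 0.0214). Plcg1 was called in 3 of the 8 fits without 1 library, being lost without either JL019 library of either group and without Treg-treated JL027-2 (highest adjusted p = 0.0734). Nfatc1 (ENSMUSG00000033016), the calcium-driven transcription factor, read 4409, 3936, 2396 and 3314 in allogeneic and 670.5, 712, 1615 and 733 in Treg-treated libraries, fell by 1.98 (SE 0.462, limma adjusted p = 0.0107) and was the member called in all 8 fits. The adaptor exchange factor Vav1 fell by 1.07 and Cblb, a ubiquitin ligase that restrains TCR signalling, and Nfatc2 were also lower. Cd3e (-0.015) and the coreceptor Cd4 (-0.88) were not called. Among 20 immediate early genes of TCR stimulation, Dusp5 alone was called, at 10263, 10512, 8318 and 10363 in allogeneic and 5734, 5072, 2997 and 2118 in Treg-treated libraries (log2 change -1.41, limma adjusted p = 0.0243, called in 3 of the 8 fits), and Nr4a1 read 2419, 2570.0, 2217 and 2845 in allogeneic and 1509, 1625, 1037 and 669.9 in Treg-treated libraries without passing (adjusted p = 0.124).

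Of 20 NF-kB pathway genes 5 fell and 1 rose, a count that was 1 and 0 with the trend removed, 8 and 2 without Treg-treated JL027-1, and 0 and 0 without each of the other 3. With median centring 2 fell and 1 rose. Tnfaip3, the deubiquitinase A20 that shuts the pathway off, read 14858, 17025, 11436 and 13522 in allogeneic and 2611, 2797, 4564 and 1692 in Treg-treated libraries, without overlap, and fell by 2.36 (SE 0.675, limma adjusted p = 0.019, called in 4 of the 8 fits). Malt1, a protease of the pathway, and the kinase Ikbkb fell by 0.89 and 0.59, and Nfkb1 was not called (-0.19). The TGF-beta pathway, through which Treg and other cells restrain T cells, had the lowest median of the pathway lists, -0.77 (-0.69 with the trend removed), with 6 of 20 lower and 0 higher. Smad3, a signal transducer of the receptor, read 1019, 1187, 760.4 and 785 in allogeneic and 216, 227, 505 and 258 in Treg-treated libraries with no overlap. Its log2 change was -1.70 (SE 0.432, limma adjusted p = 0.0137). Smurf1, a ubiquitin ligase of the pathway, and Smad4 fell by 1.70 and 1.18 (adjusted p = 0.0119 and 0.0175). Tgfb1 itself read 2076, 2128, 1137 and 1551 in allogeneic and 1048, 1322, 1213 and 1081 in Treg-treated libraries and was not called. The number of TGF-beta pathway genes that fell was 10 without Treg-treated JL027-1, 1, 1 and 2 without the other 3 in order, and 2, 3, 6 and 4 without each allogeneic library.

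Nutrient genes were mostly lower where they were called. Slc7a5 (ENSMUSG00000040010, chr8:121881146-121907686), the transporter of large neutral amino acids, read 2871, 2937, 2090.3 and 3497 in allogeneic and 373, 366, 1442 and 390.5 in Treg-treated libraries, and its groups did not overlap. It fell by 2.41 (SE 0.566, limma adjusted p = 0.011) and was called in all 8 fits without 1 library. Of 25 genes of the amino acid response and transport 5 fell, among them Trib3 and Aldh18a1, and 2 rose, Cebpg by 0.85 and Mthfd2 by 0.50 (limma adjusted p = 0.00902 and 0.0231), and the regulator Atf4 was not called (0.41). The number that fell was 7 without Treg-treated JL027-1, 6 without allogeneic JL027-1, 1 without Treg-treated JL027-2 and 2 without each other library. Cpt1a, the entry enzyme of mitochondrial fatty acid oxidation, read 7985, 6587, 4769 and 6333 in allogeneic and 948, 839, 3612 and 1096 in Treg-treated libraries. It fell by 2.24 (SE 0.467, limma adjusted p = 0.00737), with no overlap, and the desaturase Scd2 fell by 1.59. Fabp5, a fatty acid binding protein, read 1128, 781, 1412 and 1165 in allogeneic and 3035, 3659, 2442 and 3412 in Treg-treated libraries and was the one of 19 fatty acid genes that rose (log2 change 1.50, limma adjusted p = 0.00943), beside 5 that fell. Those that fell were 7 without Treg-treated JL027-1, 2 without each other Treg-treated library and 2, 2, 5 and 3 without each allogeneic library. Of 19 sterol synthesis genes 4 fell and 2 rose: Fdps rose by 0.84, Srebf2, the transcription factor of the pathway, fell by 0.81, and Srebf2 did not pass with the length trend removed (adjusted p = 0.0563). In the sterol list 0 genes were called in either direction without either JL019 library of either group or without Treg-treated JL027-2, and 6 fell and 2 rose without Treg-treated JL027-1 or without the syngeneic library. With the length trend removed or median centring 2 fell and 2 rose.

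Genes of DNA replication rose in 12 of 30 cases and fell in 0, while the median log2 change was 0.10. Orc6, of the origin recognition complex, read 1252, 1013, 1468 and 1360.0 in allogeneic and 2575, 3245, 2177 and 2913 in Treg-treated libraries, the clamp loader subunit Rfc3 read 1116, 947, 1323 and 1252 in allogeneic and 2148, 2922, 1915 and 2482 in Treg-treated libraries, and neither overlapped. Their log2 changes were 1.10 and 1.02 (limma adjusted p = 0.00768 and 0.00849), and both were called in all 8 fits, as was Gins2. The replicative helicase genes Mcm2 and Mcm3, at -0.88 and -0.54, were not called, and Mcm2 read 5214, 4584, 4256 and 5866 in allogeneic and 2091, 2005, 5058 and 2434 in Treg-treated libraries, with JL027-1 inside the allogeneic range and the other 3 below it. Of 30 mitosis genes 4 rose and 1 fell, a share higher near the 10.7% of all genes. The mitosis counts were 5 higher and 6 lower without Treg-treated JL027-1, and 3, 1 and 2 higher and 0 lower without the other 3 in order. Cdk1, the kinase that drives entry into mitosis, read 2551, 2102, 3009 and 3203 in allogeneic and 6189.7, 7367, 4703 and 6569 in Treg-treated libraries, with no overlap, and rose by 1.19 (SE 0.26, limma adjusted p = 0.00877), Ube2c rose by 1.23, and Bub1b, of the spindle checkpoint, fell by 1.41. Ccna2, cyclin A2, was not called (0.13). Without Treg-treated JL027-1 the replication genes were 12 higher and 6 lower, and without the other 3 in order 7, 4 and 6 were higher.

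Among 25 genes of the p53 response, cell cycle inhibitors and apoptosis, 4 rose and 4 fell, against 10.7% and 11.5% of all genes. The counts were 8 and 6 without Treg-treated JL027-1, 0 and 0 without either Treg-treated JL019 library, and 8 and 2 with median centring. Bcl2a1d and Bcl2a1b, related inhibitors of apoptosis whose reads may be shared, rose by 1.16 and 1.07 (limma adjusted p = 0.0149 and 0.0157). The proapoptotic members Bbc3, Bcl2l11 and Pmaip1 fell by 1.28, 0.92 and 0.88 (adjusted p = 0.0266, 0.0301 and 0.0327). Bbc3, which encodes Puma, read 1141, 729, 356 and 448 in allogeneic and 356, 389, 123 and 221 in Treg-treated libraries, and its groups overlapped, with the 2 JL019 libraries above the 2 JL027 libraries on both sides. Cdkn1a, the p21 inhibitor, read 1119.6, 878, 913 and 1191 in allogeneic and 2558, 3415, 722 and 1199 in Treg-treated libraries and was not called.

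Of 18 genes of the type 1 helper programme 1 rose and 3 fell, against 10.7% and 11.5% of all genes. The counts were 4 and 3 without Treg-treated JL027-1, 1 and 1 or 2 without each of the other 3, and 1 and 6 without the syngeneic library. Ifngr2 (ENSMUSG00000022965, chr16:91547059-91564007), the signalling chain of the interferon gamma receptor, read 88.1, 73.8, 73.6 and 45.6 in allogeneic and 422, 579, 161 and 369 in Treg-treated libraries, with no overlap. It was the member that rose, by 2.33 (SE 0.346, limma adjusted p = 0.000681), and the day 0 libraries read 1753 and 1806. The binding chain Ifngr1 went the other way, from 38129, 31599, 35694 and 34834 to 23237, 24436, 20719 and 17984, and fell by 0.71 (limma adjusted p = 0.0131), with 6128 and 5909 at day 0. Il18rap and Il12rb2, receptor chains for interleukins 18 and 12 that mark type 1 cells, fell by 1.47 and 1.77 (adjusted p = 0.005 and 0.0179), although Il12rb2 read 6022, 5759.7, 6386 and 6355 in allogeneic and 1205, 1109, 6099 and 1280.4 in Treg-treated libraries, with JL027-1 inside the allogeneic range. Il18bp, the secreted inhibitor of interleukin 18 and no member of that list (ENSMUSG00000070427, chr7:102015074-102018232), read 223, 191, 137 and 160.2 in allogeneic and 623, 628, 481 and 597 in Treg-treated libraries. All 4 Treg-treated libraries were high, and it rose by 1.72 (SE 0.24, limma adjusted p = 0.000489). Tbx21, the type 1 master regulator, was not called (-0.71).

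Of 20 inhibitory receptors and exhaustion factors 3 rose and 2 fell, shares near the 10.7% and 11.5% of all genes. They were 4 and 2 without Treg-treated JL027-1 and 1 and 1 without each of the other 3. Cd200r1, an inhibitory receptor, read 918, 974, 1234 and 994 in allogeneic and 2056, 2599, 1538 and 2057 in Treg-treated libraries, with no overlap, and rose by 0.99 (SE 0.201, limma adjusted p = 0.00666). Pdcd1, which encodes PD-1, read 8702, 10570.1, 8619 and 10422 in allogeneic and 24079, 19154, 14439 and 15040.3 in Treg-treated libraries, also without overlap, and rose by 0.90 (adjusted p = 0.0258). It was called in 2 of the 8 fits without 1 library, without Treg-treated JL027-1 and without allogeneic JL027-2 (highest adjusted p = 0.0978). Prdm1, the effector regulator Blimp-1, fell from 2317, 2039, 1724 and 2123 to 740.3, 799.8, 1031 and 634, by 1.37 (limma adjusted p = 0.00348), and was called in all 8 fits, while Lag3 was not called (0.08). Of 18 costimulators, Tnfrsf4 and Tnfrsf18, the receptors OX40 and GITR that activated T cells and Treg carry, rose by 1.15 and 1.06 (limma adjusted p = 0.0181 and 0.0141). Cd48 and Tnfsf8, the ligand of CD30, also rose, Tnfrsf1b fell by 1.56 and Cd86 by 0.63, and Cd28 was not called (0.0053). The 4 higher and 2 lower of this list became 5 and 2 without Treg-treated JL027-1, 0 and 0 without either Treg-treated JL019 library, and 2 and 0 without Treg-treated JL027-2. Without the syngeneic library they were 7 and 2.

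Genes of naive and memory cells and of homing were mixed, 3 of 20 higher and 3 lower in the first list, against 10.7% and 11.5% of all genes. The 3 lower became 0 without either JL019 library of either group and without Treg-treated JL027-2, while 3 or 4 rose in each of the 8 fits. With the length trend removed 3 rose and 1 fell, with each library median centred 4 rose and 1 fell, and without the syngeneic library 4 rose and 5 fell. Id3 (ENSMUSG00000007872, chr4:136143822-136145392), an inhibitor of E protein transcription factors, read 443, 422, 499.7 and 619.9 in allogeneic and 1482, 2004, 1259 and 2905 in Treg-treated libraries, with 3287 and 2775 at day 0. Its log2 change was 1.89 (SE 0.279, limma adjusted p = 0.000681). Dapl1, which is high in naive and memory T cells, read 106, 71.9, 97.7 and 98.0 in allogeneic and 695, 476, 209 and 534 in Treg-treated libraries and rose by 2.23 (limma adjusted p = 0.00107), with 3226 and 2690 at day 0. In contrast S1pr1, the receptor for exit from lymph nodes, fell by 1.25 and Lef1, a transcription factor of naive cells, by 0.85 (adjusted p = 0.0195 and 0.0254), and Ccr7 was not called. Of 20 tissue homing and retention genes, Fut7, which makes selectin ligands, rose by 0.98 (limma adjusted p = 0.00682). Itgal and Itgb2, the chains of the integrin LFA-1, fell by 1.98 and 0.74, and Ccr2 by 0.77. The 1 higher and 3 lower genes of the homing list stand against 10.7% and 11.5% of all genes. The 3 lower ones became 8 without Treg-treated JL027-1, 2 without allogeneic JL027-1 and 0 without each other library of the 2 groups. They were 2 with the length trend removed, 1 with median centring and 5 without the syngeneic library. Itgal read 20201, 18690.1, 11939 and 16544 in allogeneic and 3030.3, 2639, 11854 and 3244 in Treg-treated libraries, with JL027-1 just below the lowest allogeneic library.

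The rising genes picked over the whole table had to show no overlap between the groups. Among them the lowest p was that of Myo6, an actin motor protein (ENSMUSG00000033577, chr9:80164976-80311729). It read 196, 221, 261 and 261 in the allogeneic and 1168, 1331, 2932 and 2259.6 in the Treg-treated libraries, where JL027-1 was the highest, and rose by 2.94 (SE 0.396, limma adjusted p = 0.000351). The syngeneic libraries JL019-1 and JL027 read 13504 and 13531, and the syngeneic library that goes against its label read 2645. Myo6 spans 147 kb, and with the length trend removed its change was 3.24. Crem, a transcription factor of the cAMP response, read 998, 871, 1000.4 and 858 in allogeneic and 2579, 3074, 1689.8 and 2385 in Treg-treated libraries and rose by 1.35 (SE 0.193, limma adjusted p = 0.00059). Rgs10, a regulator of G protein signalling, and Lbh, a transcription cofactor, rose by 1.54 and 1.34 (limma adjusted p = 0.00152 and 0.00152). Sostdc1, a secreted antagonist of BMP and Wnt ligands, read 104, 104, 263 and 423 in allogeneic and 1304, 1932, 1949 and 3083 in Treg-treated libraries and rose by 3.40 (adjusted p = 0.00179). Exosc6, of the RNA exosome, was listed at 0 in 3 allogeneic libraries and at 25.7 in the other, against 1473, 2032, 145 and 1486 in Treg-treated hosts. Since other genes also show a 0 beside values over 100 in the same group, 22 in allogeneic and 50 in Treg-treated libraries, no fold is given.

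The falling genes picked in the same way, again with no overlap as a condition, were Pxylp1, Nod1, Dzip1, Ano10, Rab27a, Inpp5k, Pde2a, Txnip, Palm, Itih5, Vmac and Adgrg5. Nod1, an intracellular sensor of bacterial cell walls, read 2230.4, 1951, 1156 and 1677 in allogeneic and 374, 219.6, 679 and 184 in Treg-treated libraries and fell by 2.42 (SE 0.4, limma adjusted p = 0.00195). Pde2a, a phosphodiesterase that degrades cyclic nucleotides, read 3456, 2364, 1457 and 1972 in allogeneic and 278, 271, 892 and 192 in Treg-treated libraries. It fell by 2.70 (SE 0.476, limma adjusted p = 0.0027). Rab27a, which docks cytotoxic granules, fell by 1.28 (limma adjusted p = 0.00241), beside 1 other cytotoxic granule gene that fell, Lamp1, and 3 of 19 that rose, Cst7, Tnfsf10 and Gzme, the last listed at 0 in all 4 allogeneic libraries. These counts of 3 higher and 2 lower stand against 10.7% and 11.5% of all genes. The 3 that rose became 6 without Treg-treated JL027-1, 1 without each other Treg-treated library and 5 with median centring. Txnip, which restrains glucose uptake, read 33749.7, 28232, 22055 and 21632 in allogeneic and 9266, 8386, 11919.7 and 7433 in Treg-treated libraries and fell by 1.51 (limma adjusted p = 0.00283). In Palm, a membrane protein, JL027-1 was not the odd library: it read 834, 602, 499 and 689 in allogeneic and 138, 134, 141 and 88.0 in Treg-treated libraries. Gzmb, the main granzyme, read 29286, 20943, 33256 and 34407 in allogeneic and 34582, 41029, 34022 and 31893 in Treg-treated libraries and was not called.

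The same comparison in CD8 cells called 11 genes (0.0657%), and the difference of the 2 Treg effects was called in 1 of 16741 genes (0.00597%), Gcg, with 430 at an unadjusted p under 0.05. For the chaperones the CD8 log2 changes were 3.29 for Hspa1a and 1.18 for Hsp90aa1 and did not pass (limma adjusted p = 0.0686 and 0.0794). Id3 and Crem passed in CD8 cells too (2.11 and 1.00, limma adjusted p = 0.000361 and 0.0424). Ifngr2, Myo6 and Il18bp had CD8 changes of 0.016, 0.54 and 0.28. Their differences between CD4 and CD8 cells, 2.31 (SE 0.489), 2.39 (SE 0.56) and 1.44 (SE 0.34), had limma adjusted p values of 0.364, 0.811 and 0.811, so no such difference was shown for them.

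The receptor repertoire of the same 8 libraries was read from the clonotypes, each defined by its V and J genes and its CDR3, the receptor loop that meets the peptide. Beta chain (TRB) reads were 10864 to 30048 per library and alpha chain (TRA) reads 12500 to 24950. PCR reads without molecular identifiers are not independent molecules. At an equal 10864 reads, the TRB libraries of allogeneic hosts held 3969, 3800.0, 3731 and 3570.4 clonotypes and those of Treg-treated hosts 3011, 3280.4, 3042 and 3146. The groups did not overlap, and the means of 3767 ± 165 and 3120.1 ± 121 (SD, n = 4) gave a two-sided exact permutation p of 0.0286 (0.0343 adjusted over 6 repertoire tests). Counted without drawing equal reads, Treg-treated libraries held 562.5 more TRB clonotypes on average (exact permutation p = 0.429), so the direction rests on equal reads. Their TRB reads were 17429 to 30048, against 10864 to 19911 in allogeneic libraries. Clonality, 0 for equally large clonotypes and 1 for a single one, was 0.123 ± 0.00997 in allogeneic and 0.175 ± 0.0104 in Treg-treated hosts (SD, n = 4, exact permutation p = 0.0286). The largest TRB clonotype held 1.57%, 2.08%, 1.92% and 2.46% of allogeneic and 4.21%, 2.89%, 2.97% and 7.17% of Treg-treated reads (exact permutation p = 0.0286). Treg-treated JL027-1 lay among its own group in each of these TRB measures, unlike in most RNA values.

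The alpha chains gave the same direction in clonality and clonotype number. At 12500 reads, TRA clonotypes numbered 2689 ± 99.6 in allogeneic and 2373 ± 231 in Treg-treated hosts, and clonality was 0.149 ± 0.00596 and 0.188 ± 0.0321 (SD, n = 4, exact permutation p = 0.0286 for both). Treg-treated JL027-1 had the highest TRA clonality, 0.235, and without it the difference in clonality went from 0.0391 to 0.0234 and that in clonotypes from -316.3 to -204.4. The TRA clonotype ranges came within 1 clonotype of each other, with 2540.6 in allogeneic JL027-2 and 2540.0 in Treg-treated JL019-1. The largest TRA clonotype held 1.33% to 4.11% in allogeneic hosts and 2.41% to 3.54% in 3 Treg-treated hosts, but 14.4% in JL027-1, and did not pass (exact permutation p = 0.314). Of 14 TRB V segments with a mean share of at least 1%, TRBV26 and TRBV23 did not overlap. TRBV26 held 7.16%, 6.93%, 5.41% and 5.80% of allogeneic and 2.85%, 3.59%, 3.23% and 3.74% of Treg-treated reads, and TRBV23 a mean of 2.39% and 1.31%. With adjustment over the 14 segments neither passed (exact permutation p = 0.2), and none of 16 TRA V segments passed either, the lowest unadjusted p being 0.0857. Overlap of clonotypes between libraries was low in TRB: the Morisita-Horn index, from 0 to 1, had a TRB median of 0.0134 over 6 allogeneic pairs, 0.0104 over 6 Treg-treated pairs and 0.0107 over 16 pairs across the groups. In TRA the medians of the same pairs were 0.0848, 0.0277 and 0.0291, with a highest value of 0.150 between allogeneic libraries. These overlaps were not tested. Clonotypes of the Treg library of the same host held 0.833% of TRB reads in JL019-1 and 3.56% in JL019-2, the 2 hosts whose labels match a Treg library, and those of Treg libraries that the labels place in other hosts held 0.398% to 2.28%. The JL027 Treg library carries no host number, and its clonotypes held 1.17% of TRB reads in JL027-1 and 0.275% in JL027-2. In the 4 libraries of untreated hosts, clonotypes of the 3 Treg libraries held 0.558% to 3.50%.

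**Figure D5:**
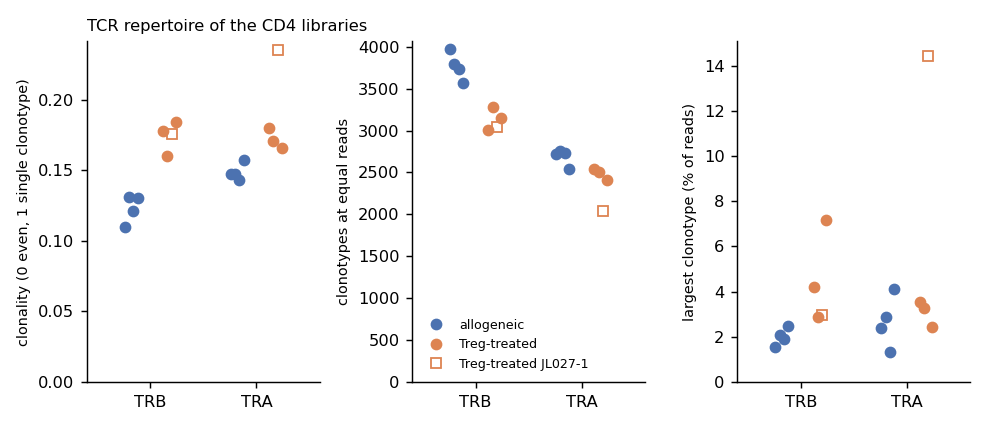
Repertoire measures of the 8 CD4 libraries for the beta (TRB) and alpha (TRA) chain, with clonality, the number of clonotypes at equal reads and the percent of reads in the largest clonotype on the y axes. Each point is a library and the open square is Treg-treated JL027-1; clonality and clonotype number do not overlap between the groups in TRB, and JL027-1 has the highest largest TRA clonotype, 14.4%.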

How the data were processed

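RNA of sorted donor T cells was made into full-length cDNA with the SMARTer v4 chemistry and into libraries with Nextera XT, per the labels' protocols, and nested PCR on that cDNA gave the T-cell receptor chains. The deposited RNA signal is a table of estimated read counts scaled between libraries by the authors; kallisto, FastQC 0.11.7 and DESeq2 are named in the submitters' processing notes, with build GRCm38/mm10. The values are not whole (1.96% within 0.001), so no count test was run and depth is unknown. Receptor tables deposited by the authors give the read count of each clonotype; their caller is not given in the sources used here.

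Values were taken as log2(value + 1) and fitted with limma 3.58.1 (R 4.3.3; group means over all 31 libraries, trended and robust variance), with Benjamini-Hochberg adjustment over 16741 genes and a threshold of 0.05, so fold changes of low genes are understated. The fit was checked on simulated data with known changes. The length trend was fitted per library on RefSeq spans, which 95.3% of genes have. Receptor measures were averaged over 20 draws of equal reads and tested with two-sided exact permutation tests. One alpha chain library carries a deposited total that is the sum of 2 libraries, and its own reads were used. Upstream sequences came from RefSeq. Scripts ran in Python 3.11.15 with scipy 1.17.1, pandas 2.3.3, numpy 2.4.6 and, for figures, matplotlib 3.10.9.

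The comparison and the gene lists were chosen with earlier results of these data known, while the libraries of the comparison follow from their labels. Named genes were up to 12 rising and 12 falling genes with the lowest p that were called, without overlap, same in direction within each prefix, called with the length trend removed and with a mean of at least 50 in the higher group, leaving out predicted and ribosomal protein genes, Gcg, Gzmc and genes of glycolysis and of the interferon response. From each list up to 3 called members per direction and the first 2 members were named, and 5 genes for the CD8 difference; a few genes that the rule gives are not reported here. Ccl1, Ccl3, Csf2, Il6, Il10, Lta, Ltb, Tnf, Cblb, Nfatc2, Cd48, Gins2, Ikzf2, Itgam, Ncr1 and the chaperone list were added after their values had been seen. Shared replicate numbers did not pair the libraries. Alternatives covered the pseudocount, filters, scaling, the length trend, the libraries fitted, blocks and each library left out.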

Additional observations from a re-analysis of the deposited data

Results flagged for a closer look

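Among 334 groups of 4 values, 35 held a value far from the other 3. Far means that its gap to the nearest value, as a share of the group's range, passed Dixon's critical value at the 0.05 level, which flags about 1 group in 20 by chance. Genes share the same libraries, so these groups are not independent. In 25 genes that value was Treg-treated JL027-1, above the other 3 Treg-treated libraries: it lay below the allogeneic range in 17 of them, inside it in 6 and above it in 2. The values of JL027-1 below the allogeneic range were 1614.9 for Nfatc1, 3615 for Vav1, 2172 for Plcg1, 3299.6 for Cblb, 5055 for Il18rap, 5087 for Tnfrsf1b and 11854 for Itgal. They were 1442 for Slc7a5, 2183 for Aldh18a1, 3612 for Cpt1a, 505 for Smad3, 2338 for Smad4, 63.6 for Dzip1, 3110.4 for Inpp5k, 892 for Pde2a, 1305 for Itih5 and 222 for Adgrg5. Inside the allogeneic range were Il12rb2 at 6099, Mcm2 at 5058, Bub1b at 2771.5, Polr1a at 900.3, Ndufs1 at 4539 and Cd4 at 17587. Above it were the chaperones Hspa4 at 8410.4 and Hsph1 at 3886, the latter with 1329 to 1623 in the other 3 Treg-treated libraries. Cebpg was the gene in which JL027-1 lay far below the other 3, at 1151 against 1532 to 1584.

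In the remaining libraries, Dusp5 read 8318 in allogeneic JL027-1, under the 10263 to 10512 of the others, and Lef1 read 4744 in allogeneic JL019-1, above 4130.1 to 4214. Cd86 read 398 and Palm 88.0 in Treg-treated JL027-2, both below their group. Ncr1 read 10.5 in allogeneic JL019-1, above 3.98 to 4.87, and S100a9 read 1371 in allogeneic JL019-2, under 2869 to 3027. Exosc6 read 25.7 in allogeneic JL027-1 and was listed at 0 in the other 3. The number of TRA clonotypes at equal reads, 2540.6 in allogeneic JL027-2, lay under the 2724 to 2754 of its group, and the largest TRA clonotype of Treg-treated JL027-1, 14.4%, lay above 2.41% to 3.54%.

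The Treg effect on Gcg was 6.72 in CD4 and 0.24 in CD8 cells on the log2 scale, a difference of 6.48 (limma adjusted p = 0.000534).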

How the results depend on the processing

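The number of genes called, 3710, was 2418 with the replicate label as a block, 7960 with array weights, 5 and 8 within JL019 and JL027, 1970 with a log2 change of at least 1, and 470 to 5633 without 1 library. The list members called, 238, were 446 with array weights, 0 and 0 within JL019 and JL027, 117 with a log2 change of at least 1 and 45 to 333 without 1 library. Leaving out the syngeneic library that goes against its label, an alternative added after the data were seen, gave 4787 genes and 295 list members. The CD8 difference gave 0 genes with a pseudocount of 0.1, 4 with the recipient as a block and 1 to 2 without 1 library. Of the 124 called genes named, 112 were still called with the length trend removed, 111 with the label block, 54 in all 8 fits without 1 library and 57 to 123 in single ones, and none reversed. Same-numbered libraries had correlations of -0.0964 to 0.00275 and 0 allogeneic libraries correlated best with their own label, so the numbers do not pair them.

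Within replicate labels, exact tests cannot go below 0.125, which was the p of the length trend (-0.0977), TRA clonality (0.0391), TRA clonotypes (-316.3), TRB clonality (0.0514), TRB clonotypes (-647.4) and the largest TRB clonotype (2.30). Without 1 library exact tests cannot go below 0.0571, and the length trend was -0.126 to -0.0802, TRA clonality 0.0234 to 0.0466, TRA clonotypes -372.1 to -204.4, TRB clonality 0.0470 to 0.0563, TRB clonotypes -713.0 to -580.3 and the largest TRB clonotype 1.35 to 2.78. TRB clonotypes reversed without equal reads, at 562.5 (exact permutation p = 0.429), and with at least 2 reads, at 232.5 (p = 0.4, exact). TRA clonotypes were -271.25 and -133.75 there (exact p = 0.314 and 0.257). TRB reads were 10864 to 19911 in allogeneic and 17429 to 30048 in Treg-treated libraries. With the length trend removed, 79.2% of genes of Treg-treated JL027-1 and 9.57% of JL019-2 lay nearer to allogeneic, an alternative added after the data were seen. RNA depth is unknown, so counting error cannot be set apart.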

Other observations

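The S100, annexin and galectin list had 5 of 17 higher and 0 lower, and 0 were called without either Treg-treated JL019 library or without Treg-treated JL027-2 or allogeneic JL019-2. S100a8, a neutrophil protein, read 4812, 2225, 5243 and 4148 in allogeneic and 44215, 24029, 12431 and 14715 in Treg-treated libraries, without overlap, and S100a8 was not called with the length trend removed. Of 23 cytoskeleton and migration genes 4 rose and 6 fell, against 10.7% and 11.5% of all genes. The counts were 8 and 6 without Treg-treated JL027-1 and 0 and 0 without any of the other 3. Of 20 Treg identity genes 4 rose and 0 fell, among them Areg, Tnfrsf4 and Tnfrsf18, against 10.7% of all genes higher. These Treg identity counts were 5 higher and 4 lower without Treg-treated JL027-1, 1 and 0 without either Treg-treated JL019 library, 3 and 0 without Treg-treated JL027-2 and 5 and 3 without the syngeneic library that goes against its label. Of 9 granzyme-inhibiting serpin and Ctla2 genes 1 fell, against 11.5% of all genes. Of 20 gamma chain receptor and STAT5 response genes 1 rose and 1 fell, against 10.7% and 11.5%. The number of gamma chain genes that fell was 5 without Treg-treated JL027-1, 0 without any of the other 3 and 6 without that syngeneic library.

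Levels in the other CD4 groups were not tested and are given side by side, syngeneic libraries in the order JL019-1, JL019-2 and JL027 and day 0 libraries in the order JL019 and JL027. Areg read 26.6, 25.1 and 29.2 in the syngeneic and 2.81 and 3.35 in the day 0 libraries. Il2 read 207, 76.5 and 101 in the syngeneic and 22.5 and 27.7 in the day 0 libraries. Il4 read 11.8, 56.7 and 30.8 in the syngeneic and 38.9 and 30.5 in the day 0 libraries. Sostdc1 read 118, 65.0 and 57.7 in the syngeneic and 9.34 and 15.0 in the day 0 libraries.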
